A study of Mus musculus with 2 samples.

Results

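The nuclear-encoded respiratory chain genes were taken by symbol. A gene was a member if it had an annotated protein-coding transcript and a symbol that began with Nduf, Uqcr, Atp5 or Cox followed by a digit between 4 and 8. The rule found 90 of 55536 genes, and 21901 genes in all had a protein-coding transcript. Of the 90 members, 36 were subunits of complex I, 8 of complex III, 20 were assigned to complex IV and 17 to complex V. A further 8 were complex I assembly factors, and Atp5s, a factor named for the ATP synthase, is no subunit. The symbol Atp5o named 2 genes on chromosome 16, and the longer of them had 0 counts in both libraries.

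The study holds 2 total RNA-seq libraries, depleted of ribosomal RNA, from nuclei of mouse macrophages. The macrophages were primary cells grown from C57BL/6J bone marrow and exposed to lipid A, the membrane anchor of bacterial lipopolysaccharide, at 100 ng/ml for 25 min. One label names the fraction nucleoplasmic and another nuclear. Both libraries carry a biological replicate number and the same donor entry, and no untreated, later or cytoplasmic sample was analysed here. The libraries therefore form 1 group, no treatment effect can be read from them, and no test or p-value was computed. RNA input was 500 ng in replicate 1 and 1 µg in replicate 2.

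The respiratory chain passes electrons from NADH and succinate to oxygen and pumps protons across the inner mitochondrial membrane. Complex V uses the proton gradient to make ATP. Subunits of complexes I, III, IV and V come from both genomes: a few membrane-core subunits are transcribed inside the mitochondrion, and the others are transcribed in the nucleus, translated in the cytosol and imported. Nuclear RNA therefore comes from the compartment in which the members are transcribed and processed. The labels do not settle whether the fraction was the whole nucleus or the nucleoplasm only. In macrophages, lipopolysaccharide is known to shift energy metabolism towards glycolysis over hours.

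Replicate 1 had 13506939 estimated counts in the gene table, and replicate 2 had 17932332. Where no count was found, the limit is 3 counts, which is 0.222 CPM (counts scaled to the library total) in replicate 1 and 0.167 CPM in replicate 2. This limit covers counting error only. All 10 macrophage markers were detected, at 25.2 to 1708 TPM in replicate 1 and 31.3 to 1588 TPM in replicate 2. Summed TPM of the marker lists of other cell types was 2.62 and 2.15 for neutrophils, 0.59 and 0.23 for B cells, 3.91 and 0.24 for fibroblasts, and 29.6 and 23.8 for T cells. Of the T cell sum, Cd4 had 29.5 and 23.8 TPM, and Cd3e was at 0 in both. Levels are given in TPM, an abundance divided by effective length, the transcript length as the quantifier uses it, so that genes can be compared. For some members the effective length differed between the libraries, and their TPM depends on it. The median gene had a higher TPM in replicate 1, by 0.42 on the log2 scale over the 14584 genes that reached 10 counts in each library. Replicate 1 thus reads higher for most genes before any scaling, and 68 members had the higher TPM there against 17 in replicate 2.

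Most members were detected at low to moderate levels. TPM reached 1 in both libraries for 78 of 90 members, or 86.7%, against 44.7% of all protein-coding genes. A minimum of 10 estimated counts in each library was met by 76 members. The median member had 7.52 TPM in replicate 1 and 5.59 TPM in replicate 2, against 0.79 and 0.44 TPM for the median protein-coding gene. On the log2(TPM + 1) scale these medians were 2.91 ± 0.26 for members and 0.68 ± 0.22 for all protein-coding genes (SD, n = 2). Among detected genes the order was the other way: the median detected member had 8.49 and 6.12 TPM, against 11.4 and 7.96 TPM for the median detected protein-coding gene. Only 26 of the 78 detected members stood above the median of detected protein-coding genes. Detected members thus lay below the middle of detected genes in this nuclear RNA. Whole-cell RNA was not analysed here.

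The members together took 9120 estimated counts in replicate 1 and 11240 in replicate 2. That is 0.0675% of counts (95% Wilson interval 0.0662 to 0.0689%) and 0.0627% (0.0615 to 0.0639%). The intervals cover counting error only. TPM reached 5 in both libraries for 49 members, 10 for 21 members and 20 for 4 members. Those 4 were Atp5b, Cox4i1, Cox7c and Atp5a1, and they were also the only members in the top 10% of protein-coding genes by mean TPM. Shares of all protein-coding genes at 5, 10 and 20 TPM are not given here, so the counts at these limits only describe members. In bulk RNA, fewer cells with a transcript and less of it per cell cannot be told apart.

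**Figure D1:**
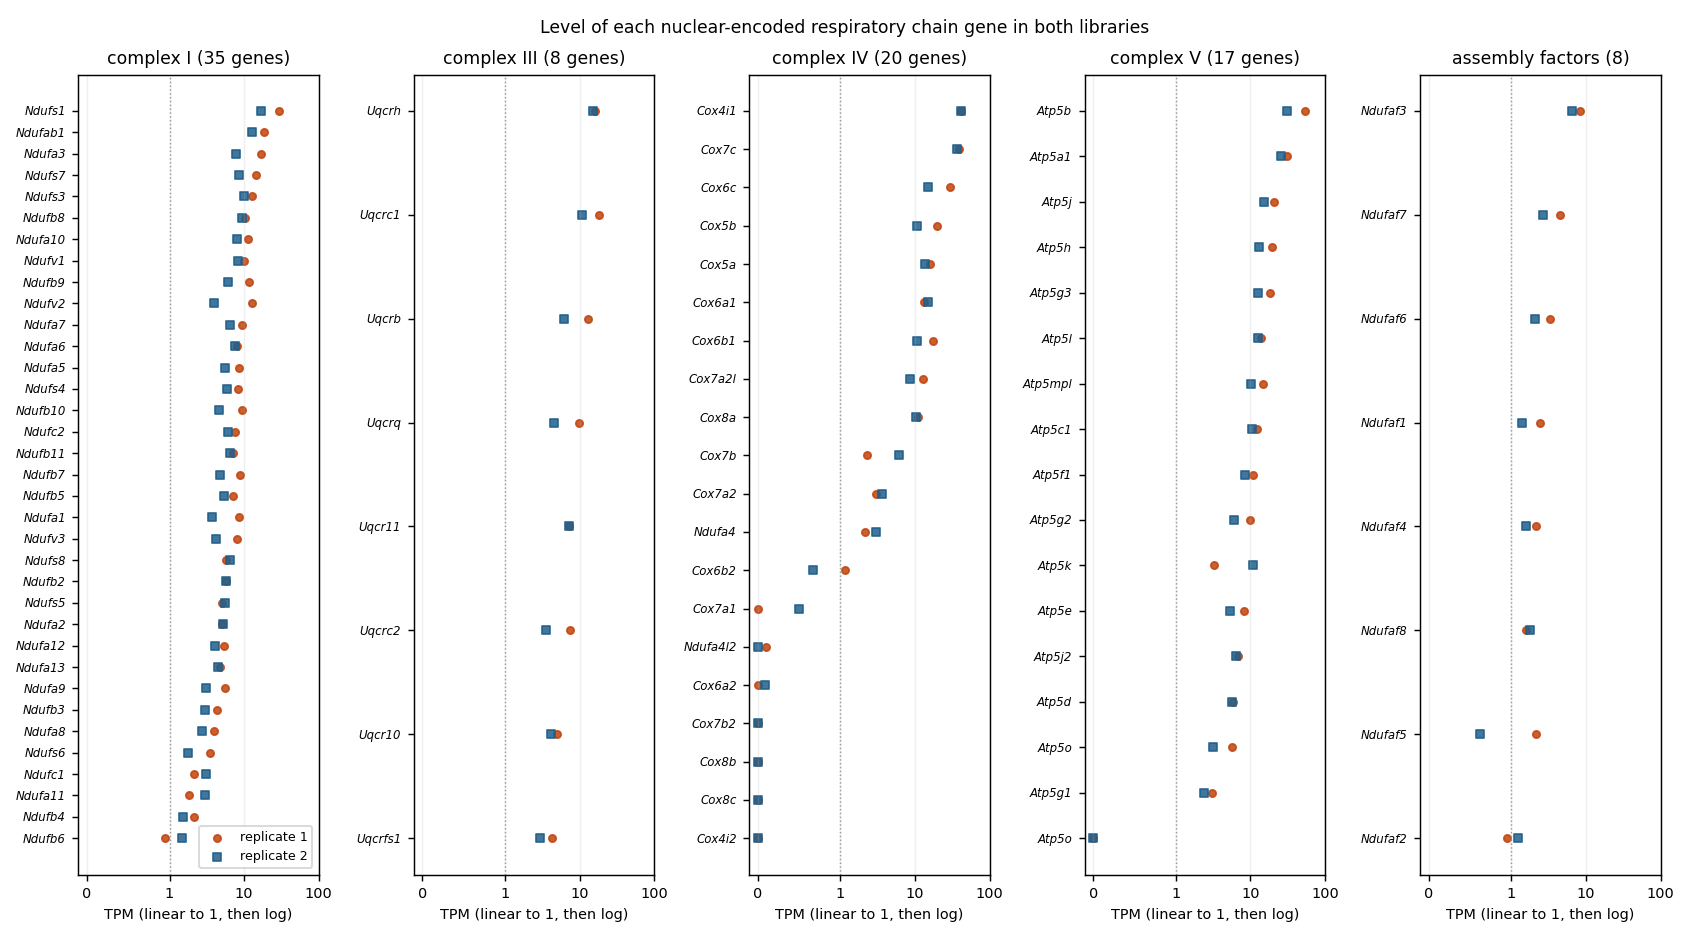
TPM of each member in replicate 1 (circles) and replicate 2 (squares), one panel per complex and one for the complex I assembly factors, genes ordered by mean TPM. The axis is linear to 1 TPM and logarithmic above it, the dotted line marks 1 TPM, and the 8 tissue isoforms sit at the bottom of the complex IV panel. Atp5s and 1 complex I subunit are not drawn.

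Complex I oxidises NADH, and its 7 nuclear-encoded core subunits carry the flavin and the iron-sulfur clusters. The core subunits had a median of 12.9 TPM in replicate 1 and 8.6 in replicate 2, and the 29 accessory subunits 7.17 and 5.27 TPM. All 7 core subunits and 28 accessory subunits were detected. Ndufs1, the largest iron-sulfur subunit, had 29.2 and 17.1 TPM in replicates 1 and 2. It was the highest member of the complex in both libraries. Ndufab1, the mitochondrial acyl carrier protein that is also an accessory subunit, had 18.2 and 12.6 TPM. Ndufa3, a small membrane subunit, had 16.8 TPM in replicate 1 and 7.85 in replicate 2.

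Of the other core subunits, 5 lay between 3.94 and 14.4 TPM. Ndufs7, which binds the last iron-sulfur cluster before quinone, had 14.4 and 8.6 TPM, and Ndufs3 had 12.9 and 9.98 TPM. Ndufv1, the subunit with the flavin and the NADH site, had 10.1 and 8.34 TPM. Its neighbour Ndufv2 had 12.8 and 3.94 TPM, the widest gap of the core as a ratio. Ndufs8, another iron-sulfur subunit, was lower in replicate 1 at 5.73 TPM than in replicate 2 at 6.46 TPM. The lowest detected accessory subunits were Ndufb4 with 2.14 and 1.5 TPM, Ndufa11 with 1.84 and 2.99 TPM, and Ndufc1 with 2.12 and 3.13 TPM. Ndufb6, with 0.94 and 1.47 TPM, fell just below the detection limit in replicate 1, and Ndufaf5, with 2.14 and 0.62 TPM, in replicate 2.

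The value of Ndufb4 is uncertain, since reads may be divided between it and Ndufb4c, annotated as a processed pseudogene. Ndufb4 had 13.1 and 18.8 estimated counts, with posterior SDs of 2.2 and 2.32 counts from the quantifier. In 4 other members, Ndufa12, Ndufb6, Atp5g2 and Ndufaf2, that SD also passed 5% of the count in at least 1 library. It was 0 in both libraries for 64 members.

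The 8 assembly factors Ndufaf1 to Ndufaf8, which help build complex I and leave it afterwards, had a median of 2.28 and 1.67 TPM. That is below the median of each of the 4 complexes in both libraries. Ndufaf3 was the highest with 8.39 and 6.58 TPM, followed by Ndufaf7 with 4.55 and 2.68 TPM and Ndufaf6 with 3.32 and 2.07 TPM. Ndufaf1 had 2.40 and 1.38 TPM, Ndufaf4 2.15 and 1.56 TPM, and Ndufaf8 1.55 and 1.77 TPM. Ndufaf2, with 0.95 and 1.23 TPM, was under 1 TPM in replicate 1.

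Complex III hands electrons from quinol to cytochrome c, and all 8 members were detected. Their median was 8.57 TPM in replicate 1 and 5.39 in replicate 2. Uqcrh, the acidic hinge protein, had 16 and 15.1 TPM. Uqcrc1, a large matrix-side core protein, had 18.5 and 10.8 TPM, more than its partner Uqcrc2 with 7.38 and 3.5 TPM. The small subunits Uqcrb and Uqcrq had 13.0 and 6.19 TPM, and 9.76 and 4.58 TPM. Uqcr10, another small subunit, had 5 and 4.1 TPM, and Uqcr11 7.13 and 7.16 TPM. Uqcrfs1, the Rieske iron-sulfur protein, was the lowest member of the complex with 4.33 and 2.99 TPM. Cyc1, the cytochrome subunit of complex III that the symbol rule leaves out, had 9.5 and 6.99 TPM.

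Complex IV reduces oxygen, and its members split into sets that did not overlap in either library. The 11 subunits used in most tissues were all detected, with a median of 15.9 TPM in replicate 1 and 10.7 in replicate 2. None of the 8 isoforms known from muscle, lung, testis or hypoxic cells was detected, and their median was 0 TPM in both. Cox4i1, the regulatory subunit IV, had 41.5 TPM in replicate 1 and 41.6 in replicate 2. These values were nearly equal. Cox7c had 38.8 and 36.1 TPM, Cox6c 29.7 and 14.9 TPM, and Cox5b 19.8 and 10.7 TPM. The lowest of the 11 were Cox7b with 2.27 and 6.15 TPM, Cox7a2 with 3.02 and 3.66 TPM, and Ndufa4 with 2.15 and 2.95 TPM. Ndufa4 was first assigned to complex I and is now counted as a complex IV subunit. Cox7a2l, a factor that joins complexes III and IV in supercomplexes, had 12.8 and 8.46 TPM.

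The isoform pairs can be read one by one. Cox4i1 had 289 and 481 estimated counts, and its lung isoform Cox4i2 0 in both libraries. Cox6a1 had 64 and 132 counts (13.1 and 14.8 TPM), and the heart and muscle isoform Cox6a2 0 and 1. Cox6b1 had 58 and 91 counts (17.2 and 10.6 TPM), and the testis isoform Cox6b2 5 and 4 (1.16 and 0.67 TPM). Cox6b2 was thus the isoform with the most counts. Cox7a2 had 16 and 37 counts, and the muscle isoform Cox7a1 0 and 3. Cox7b had 15 and 25 counts, and the testis isoform Cox7b2 0 in both. Cox8a had 50 and 87 counts (10.9 and 10.3 TPM), while its muscle isoform Cox8b and testis isoform Cox8c had 0 in both. Ndufa4 had 15 and 29 counts, the hypoxia-linked Ndufa4l2 1 and 0, and the inflammation-linked paralogue AA467197 2 and 2. The gaps within the Cox7 and Ndufa4 pairs thus rest on few counts.

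The alignment-free table, a second quantification from the same reads, assigned some counts to these isoforms. It gave Cox7a1 37 and 17 counts, Cox4i2 16 and 20, Cox8b 10 and 1, and Cox6a2 9 and 3. Its depth was 25317223 and 26308342 counts, so these are shares of at most 1.46 CPM. Cox7a1 at 3.04 TPM and Cox8b at 1.46 TPM exceeded 1 TPM in replicate 1 of that table, and neither did in replicate 2. The 5 heart and skeletal muscle markers had at most 0.54 TPM in replicate 1 and 0.1 in replicate 2, and the 2 testis markers were at 0.

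Complex V had a median of 10.9 TPM in replicate 1 and 10.3 in replicate 2 over 17 genes, of which 16 were detected. Atp5b, the catalytic beta subunit of the F1 head, was the highest member by mean TPM with 53.8 and 31.1 TPM, although Cox4i1 and Cox7c were higher in replicate 2. Atp5a1, the alpha subunit, had 31.2 and 25.8 TPM. The remaining F1 subunits were lower: Atp5c1 (gamma) had 12.3 and 10.4 TPM, Atp5e (epsilon) 8.14 and 5.31 TPM, and Atp5d (delta) 5.78 and 5.60 TPM. The alpha and beta subunits are present in several copies per enzyme and the other 3 in a single copy. Atp5b and Atp5a1 lay above those 3 genes in both libraries.

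The membrane ring of complex V is built from 1 protein, subunit c, encoded by 3 genes with different leader peptides. Atp5g3 had 18 and 12.7 TPM, Atp5g2 9.96 and 5.92 TPM, and Atp5g1 3 and 2.41 TPM. The order of these 3 genes was the same in both libraries. In the peripheral stalk, which holds the F1 head still, Atp5j (F6) had 20.8 and 15.1 TPM and Atp5h (d) 19.2 and 13.1 TPM. Atp5f1 (b) had 10.9 and 8.48 TPM, and the detected Atp5o gene (OSCP) 5.57 and 3.13 TPM. Among the small membrane subunits, Atp5k (e) stood out by its gap, with 7 counts and 3.28 TPM in replicate 1 against 54 counts and 10.8 TPM in replicate 2. Atp5mpl had 14.9 and 10.3 TPM.

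A few known subunits and partners lie outside the symbol rule under the gene names of this annotation. Usmg5, a small subunit of complex V, had 17.5 and 7.6 TPM. Atpif1, the inhibitor of complex V, had 35.7 and 23.3 TPM, above every member of that complex except Atp5b in both libraries and Atp5a1 in replicate 2. All 4 subunits of complex II, which oxidises succinate and is wholly nuclear-encoded, were detected. Sdha, its flavoprotein, had 54.9 and 37.9 TPM, above Atp5b in both libraries. Sdhb had 15.1 and 12.9 TPM, Sdhd 10.4 and 5.82 TPM, and Sdhc 8.23 and 4.35 TPM. Cycs, the somatic cytochrome c, had 2.52 and 2.6 TPM.

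Factors that help assemble the complexes, and regulators that act on their genes, came from 2 further lists. Of 39 other assembly factors, 32 were detected, with a median of 4.25 TPM in replicate 1 and 2.53 in replicate 2. Cox16 had 21.8 and 10.4 TPM, Pet100 22.9 and 8.02 TPM, and Cox17, a copper chaperone, 18.6 and 9.79 TPM. Of 13 transcriptional regulators of mitochondrial genes, 10 were detected. Pprc1, a coactivator of the PGC-1 family, had 25.2 and 14.5 TPM, and the nuclear receptor Esrra 20.9 and 15.2 TPM. Nrf1, which binds promoters of many respiratory chain genes, had 15.5 and 10.7 TPM. The ETS factor subunits Gabpb1 and Gabpa had 16.9 and 11.4 TPM, and 10 and 6.7 TPM. Yy1 had 10.4 and 7.55 TPM. Nrf1, Gabpa, Yy1 and Esrra thus lay above the median member in both libraries. Polrmt, the mitochondrial RNA polymerase, had 10.5 and 5.98 TPM, and its partners Tfam and Tfb2m 3.52 and 1.08 TPM, and 5.08 and 2.91 TPM. Ppargc1b had 2.59 and 2.79 TPM, whereas Ppargc1a had 0.21 TPM in replicate 1 and was at 0 in replicate 2. Mterf1a had 1.96 and 0.97 TPM and Tefm 0.88 and 0.68 TPM.

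Promoters were read for the binding letters of 3 of these factors. RefSeq promoter windows (build GRCm38.p6) from 250 bases before to 50 bases after a start matched 72 of 90 members. Both Atp5o genes matched the same window. Members without a matched entry included Atp5a1, Atp5f1, Atp5mpl, Atp5s, Cox4i1, Cox4i2, Cox6a2, Cox6c, Cox8c, Ndufa2, Ndufa4l2, Ndufaf6, Ndufb9, Ndufs1, Uqcrb, Uqcrc2 and Uqcrq. The letters searched on both strands were GCGCATGC for Nrf1, CCGGAAG for the ETS factor with Gabpa, and AAGATGGC for Yy1. The 3 words do not contain each other, and GCGCATGC can overlap its own reverse complement. Nrf1 letters were found in 11 of 72 members (15.3%), against 3.94% of 17492 protein-coding genes with a window. ETS letters were found in 16 of 72 (22.2%), against 12.9%. Yy1 letters were found in 10 of 72 (13.9%), against 3.57%. Any of the 3 was present in 31 of 72 members (43.1%), against 18.7%. Against other detected genes the gap was smaller: those had any of the 3 in 31.9% of 7771 windows, Nrf1 letters in 6.52%, Yy1 letters in 6.00%, and ETS letters in 22.8%, close to the ETS share of members.

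Most matches to the Yy1 letters lay just after the start that the promoter entry uses. That start was the RefSeq gene start in 57 of 77 entries of members, and for Atp5j2, Ndufs7, Ndufs4, Ndufs6, Ndufc1 and Ndufaf8 the gene of the files' annotation begins further upstream. In 9 of the 10 members with the Yy1 letters, they lay on the strand of the gene within the 50 bases after that start. They began at base 11 to 39 of these bases. Such a position held for 12.5% of members, against 1.48% of all protein-coding genes and 2.83% of other detected ones. Of the 9, 7 encode complex I subunits, and complex I gave 32 of the 72 promoter windows. The limit of 50 bases was chosen after the positions were seen. The letters contain ATG, and in 8 of the 9 members that ATG is an annotated start codon, as it is in 165 of 259 protein-coding genes with the letters there. Stretches of 30 bases around the letters, which are in capitals, are shown for all 9 so that the letters and their surroundings can be compared. The exception to the start codon is Ndufaf8.
Ndufa3, chr7:3617384-3617413, plus strand: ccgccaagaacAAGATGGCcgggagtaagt
Ndufa9, chr6:126849097-126849126, minus strand: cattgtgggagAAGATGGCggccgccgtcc
Ndufb8, chr19:44555393-44555422, minus strand: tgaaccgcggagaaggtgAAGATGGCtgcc
Ndufc1, chr3:51408915-51408944, minus strand: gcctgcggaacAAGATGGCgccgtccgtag
Ndufs4, chr13:114388045-114388074, minus strand: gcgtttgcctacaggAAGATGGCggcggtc
Ndufs6, chr13:73328433-73328462, minus strand: aagggtcaccggcAAGATGGCggcggtgct
Ndufs7, chr10:80249462-80249491, plus strand: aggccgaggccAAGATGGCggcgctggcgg
Atp5j2, chr5:145191500-145191529, minus strand: accaggacttcAAGATGGCgtcactcggtg
Ndufaf8, chr11:120098933-120098962, plus strand: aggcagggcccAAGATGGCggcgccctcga
Each gene is printed 5′ to 3′ on its own strand. The 9 genes did not share a level: Ndufs7 had 14.4 and 8.6 TPM, and Ndufaf8 1.55 and 1.77 TPM. A match of letters is not a binding site.

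In complex IV, 3 of 14 windows held any of the words (21.4%), near the 18.7% of all protein-coding genes. Of 9 common subunits with a window 3 held ETS letters, Cox6a1, Cox6b1 and Cox8a, and none of the 4 tissue isoforms with a window held any of the 3 words. In the Cox7a and Cox7b pairs neither the common subunit nor the isoform held any. For 2 of the pairs in which the common subunit holds them, the stretch from 60 bases before to 10 bases after the entry's start is given, with the reverse complement of the ETS letters, CTTCCGG, in capitals.
Cox6b1, chr7:30626105-30626174, minus strand: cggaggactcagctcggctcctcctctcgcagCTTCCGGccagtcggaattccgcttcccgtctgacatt
Cox6b2, chr7:4753085-4753154, minus strand: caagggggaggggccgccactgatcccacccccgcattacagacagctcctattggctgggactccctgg
Cox8a, chr19:7217607-7217676, minus strand: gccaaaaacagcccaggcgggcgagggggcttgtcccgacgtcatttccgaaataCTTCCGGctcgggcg
Cox8b, chr7:140900437-140900506, minus strand: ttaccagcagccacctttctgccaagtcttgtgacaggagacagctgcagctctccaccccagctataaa
The letters started 28 bases before the start in Cox6b1 and 5 bases before it in Cox8a, which holds them once more from base 33 after it. Cox6b1 and Cox8a were at 10.3 TPM or more in both libraries, Cox6b2 fell short of detection, and Cox8b was at 0 counts. Cox7c and Cox5b, whose windows held none of the words, were higher than Cox6b1 and Cox8a in each library. Cox7a2, Cox7b and Ndufa4, whose windows also held none, were lower. The absence of these letters from 2 windows says only that these words are not there.

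Both genomes contribute subunits, and in this nuclear fraction the mitochondrially encoded ones were far higher. The 81 nuclear-encoded subunits had a median of 8.14 TPM in replicate 1 and 5.93 in replicate 2, against 3207 and 3063 TPM for the 13 mitochondrially encoded ones. The mitochondrial minus nuclear difference of medians was 8.62 ± 0.24 on the log2(TPM + 1) scale (SD, n = 2). That is a ratio of 394 in TPM + 1, averaged over the libraries on the log2 scale. Within either library no nuclear-encoded subunit reached the lowest mitochondrially encoded one, mt-Co2, which had 198 TPM in replicate 1 and 53.2 in replicate 2. In complex I the medians were 8.04 and 5.57 TPM for nuclear-encoded and 3207 and 3063 TPM for mitochondrially encoded subunits. In complex III they were 8.57 and 5.39 TPM, against 4518 and 3218 TPM for mt-Cytb, its single mitochondrial gene.

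In the gene table, complex IV had the smallest mitochondrial minus nuclear difference. It was 6.98 ± 0.36 over all its members and 5.36 ± 1.21 over the common subunits, and complex V had 7.61 ± 0.07 (SD, n = 2). The 11 common nuclear-encoded subunits had medians of 15.9 and 10.7 TPM, against 383 and 873 TPM for the 3 mitochondrial genes. mt-Co1, the catalytic subunit, had 14281 and 10484 TPM, but mt-Co3 383 and 873 TPM and mt-Co2 the 198 and 53.2 TPM given above. In complex V, mt-Atp8 had 14900 and 7604 TPM and mt-Atp6, which overlaps it, 387 and 599 TPM. These values came from 4827 and 6867 counts for mt-Atp8 and 2467 and 6840 for mt-Atp6. The mt-Atp8 gene is short, from base 7766 to 7969. TPM divides by effective length, which is shorter than the transcript: for Ndufa1 it was 205 of 419 bases in replicate 1. The high TPM of mt-Atp8 thus rests on a small effective length and not on many counts. In alignment-free counts the order was the other way, 8396 and 8511 for mt-Atp8 against 59294 and 60504 for mt-Atp6. The alignment-free table gave mt-Co2 9798 and 20280 counts where the gene table gave 1269 and 611. It gave mt-Co3 36775 and 51156 counts against 2978 and 12021. Counts of mt-Co1 moved less, 379253 and 367551 against 259778 and 327561. The levels of mt-Co2, mt-Co3 and mt-Atp6 thus depend on how reads are assigned. Since mt-Co3 sets the mitochondrial median of complex IV, the difference for that complex depends on it too. In complex V the mitochondrial median is taken over mt-Atp8 and mt-Atp6 alone. Its difference therefore depends on the effective length of mt-Atp8 and on the reads assigned to mt-Atp6. The 13 mitochondrial genes took 4.61% of counts in replicate 1 and 4.26% in replicate 2. Whether they report on the purity of the fraction was not tested.

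**Figure D2:**
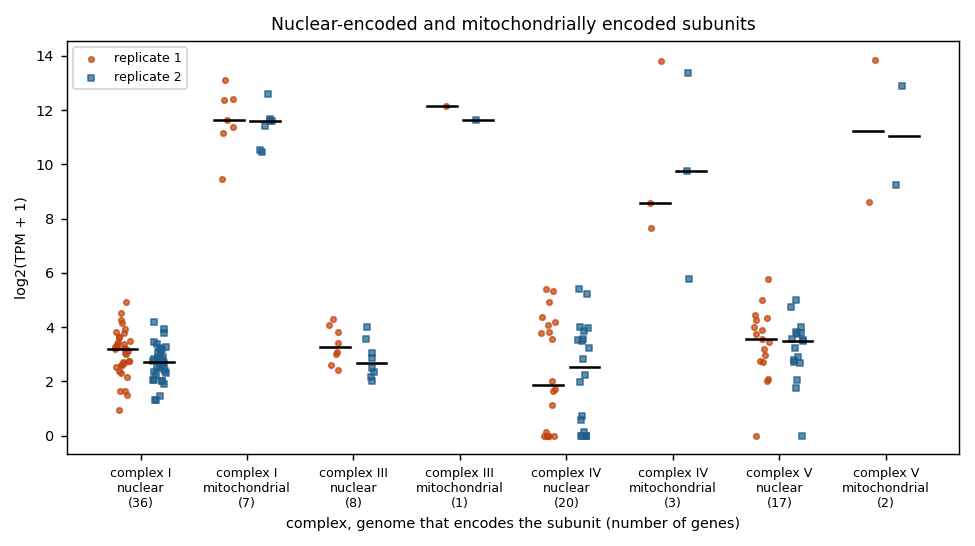
Level of each subunit as log2(TPM + 1), nuclear-encoded subunits left of mitochondrially encoded ones for each complex, replicate 1 as circles and replicate 2 as squares, with black bars at the medians. The nuclear-encoded subunits lie below 6 on this scale. The mitochondrially encoded ones lie above 8, except mt-Co2 in complex IV.

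Because the RNA is nuclear, part of it can be unspliced or partly spliced. The aligned transcript table divides each gene's counts among annotated transcripts, some of which GENCODE labels as retained-intron: transcripts that keep an intron and are not assigned a protein. Such a transcript exists for 50 of 90 members, against 41.6% of protein-coding genes. Retained-intron transcripts took 21.1% of members' counts in each of the 2 libraries, against 15.1% in replicate 1 and 16.1% in replicate 2 over all protein-coding genes. For genes that have such a transcript and reached 10 counts in each library, the median share was 28 and 29.1% over 47 members and 17.2 and 16.7% over 6882 protein-coding genes. More than 50% of the counts lay on them in both libraries for 5 of 47 members, against 11.9% of these protein-coding genes.

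Counted per length, the order of the pooled and median shares was reversed. Retained-intron transcripts took 18.1 and 19.4% of members' TPM, against 19.9 and 21.4% over all protein-coding genes. The median over the 47 members was 21.5 and 23.7%, against 29.6 and 29.3% over protein-coding genes. More than 50% of TPM lay on them for 7 of 47 members, near the 14.9% of protein-coding genes. Coding mRNAs of members were short: the median longest coding mRNA was 850 bases for members and 2680 bases for all protein-coding genes. The part of length in the difference between counts and TPM was not tested. Whether members or all protein-coding genes had the larger pooled and median share thus depended on the scale.

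Members kept much of their order between the libraries. Across the 47 members the shares of counts in replicates 1 and 2 had a Spearman correlation of 0.90, given as a description since both come from 1 annotation and method. Atp5l, subunit g of complex V, had 84.6% of 313 counts and 78.6% of 374 counts on retained-intron transcripts. Of its TPM only 22.9 and 22.7% lay there, and its leading transcript was protein-coding. Atp5j had 75.6 and 62.4% of counts and 82.8 and 62.8% of TPM on them, a majority by either measure. Ndufa6, an accessory subunit of complex I, had 81 and 53.4% of counts, and 70.4 and 36.8% of TPM. Ndufb7 had 64.3 and 62.6% of counts but 14.8% of TPM in each library. Atp5j2, subunit f of complex V, had 63.9 and 42.7% of counts. The 5 members above 50% of counts in both libraries were Atp5l, Atp5j, Ndufa6, Ndufb7 and Ndufa5.

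At the other end, Cox6b1 had no count on such transcripts, Ndufb8 0 and 3.31%, and Ndufa9 3.97 and 0%. Atp5a1 was also low with 1.08 and 3.14%, and Atp5b had 15.7 and 21.1%. Across the 47 members the Spearman correlation of share and level was 0.03, over genes of the same libraries. By complex, counts on retained-intron transcripts were 24.1 and 25.5% in complex I, 18.1 and 13.9% in complex III, 19.2 and 18% in complex IV and 20.2 and 20.1% in complex V. The 4 small membrane subunits of complex V had 74.6 and 62.2% of counts there, most of them from Atp5l, but 19 and 16.2% of TPM.

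**Figure D3:**
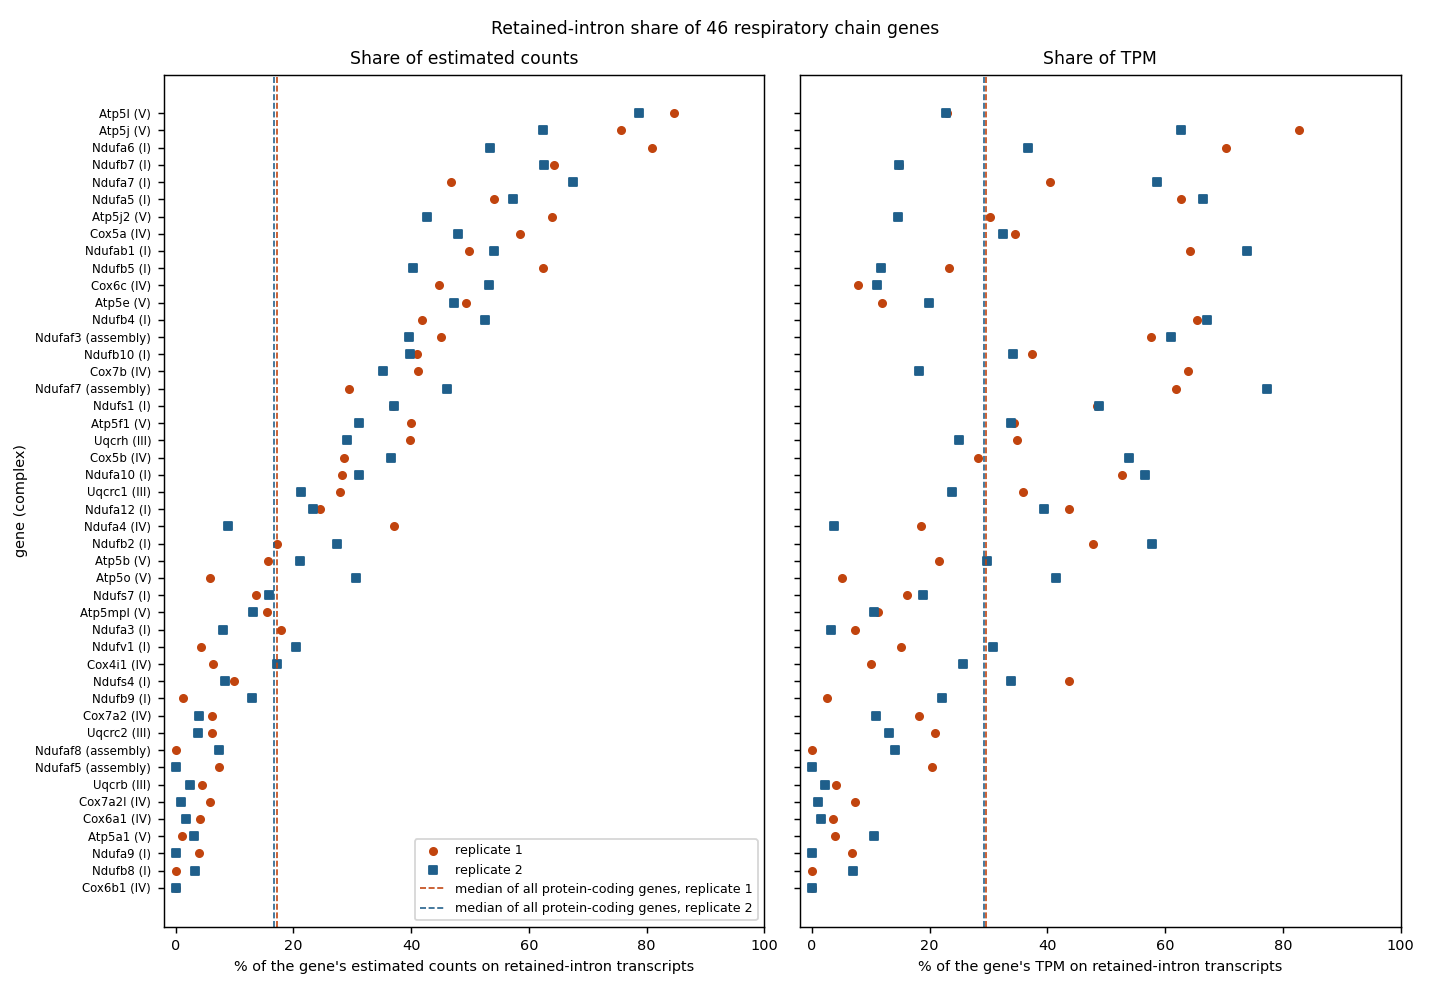
Share of each gene's estimated counts (left) and TPM (right) on retained-intron transcripts, for the 47 members with such a transcript and 10 or more counts in each library, replicate 1 as circles and replicate 2 as squares. Of the 47, 1 is not drawn. Dashed lines are the medians over 6882 protein-coding genes. Atp5l and Ndufb7 are near the top on the left and below the dashed lines on the right, while Atp5j is high in both.

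Leading transcripts gave a second view. The transcript with the highest TPM was protein-coding in both libraries for 61 of 78 detected members. It was a retained-intron transcript in both for 5, Ndufa5, Ndufab1, Ndufb4, Atp5j and Ndufaf7. Ndufa3 and Atp5f1 were led in both by a transcript labelled for nonsense-mediated decay, the pathway that destroys mRNAs with early stop codons. In Atp5f1 such transcripts held 40.7 and 50.5% of counts, retained-intron transcripts 39.99 and 31.2%, and protein-coding ones 19.3 and 18.3%. In Ndufa3 they held 29.6 and 37.5% of counts, and protein-coding transcripts 52.5 and 54.5%. The same transcript led in both libraries for 65 of the 78. Leading transcripts were not worked out for all protein-coding genes, so these counts show nothing particular to members.

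Exons of 33 members (36.7%) overlap exons of another annotated gene, against 29.6% of protein-coding genes. Of these overlaps, 29 were on the opposite strand and 6 on the same strand with 2 members counted in both, and the sources used here do not give whether reads were counted by strand. Over the 57 members without such an overlap, 16.1 and 15.5% of counts lay on retained-intron transcripts, against 14.7 and 15.7% over all protein-coding genes without one. The median share of genes with such a transcript was 28.3 and 23.4% over these members and 16.4 and 15.7% over these protein-coding genes. Over the 33 overlapping members the pooled share was higher, 25.5 and 26%, but their median share of 17.6 and 30.9% was lower in replicate 1 and higher in replicate 2 than that of members without overlap. Its part in the result was not tested.

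Between the libraries the members moved with the rest. After the median of all genes was subtracted, the log2 ratio of replicate 1 over replicate 2 had a median of -0.005 over 76 members and 0.01 over all protein-coding genes. Over the 78 detected members TPM in both libraries had a Spearman correlation of 0.86, given as a description. Only Ndufv2 was over 2-fold higher in replicate 1, against 0.264% of protein-coding genes, and only Cox7b over 2-fold higher in replicate 2, against 0.829%. Ndufv2 had a log2 ratio of 1.06, from 144 counts in replicate 1 and 99 in replicate 2. The effective length used for its TPM was 820 bases in replicate 1 and 1095 bases in replicate 2. Cox7b had a ratio of -1.55 from 15 and 25 counts, with effective lengths of 482 and 177 bases. In CPM, which uses no length, none of the 76 members with 10 or more counts in each library passed 2-fold. Atp5k, with 0.518 and 3.01 CPM, did not reach that minimum in replicate 1. Ndufv2, Cox7b and Atp5k were named after their values were seen.

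The 25 members that reached 100 counts in each library had small ratios. The highest were 0.53 for Cox6c, 0.47 for Uqcrc2, 0.35 for Atp5b and 0.34 for Ndufb7. The lowest were -0.43 for Cox4i1, -0.41 for Ndufb2, -0.32 for Cox7c and -0.28 for Atp5l. Complex IV had a median of -0.34 over 12 genes, and complexes I, III and V had medians of -0.0004, 0.14 and 0.01. Quantified without alignment, complex IV had a median of 0.19 over 14 genes, the other sign. Complexes I, III and V had 0.35, 0.38 and 0.17 over 36, 8 and 16 genes. The 11 common subunits of complex IV alone had -0.35 in the gene table and 0.17 in the alignment-free table. Detected protein-coding genes had medians of 0.03 and 0.30 in these tables, above complex IV in both. The sign for complex IV thus depended on the table, and so did the median that was subtracted.

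**Figure D4:**
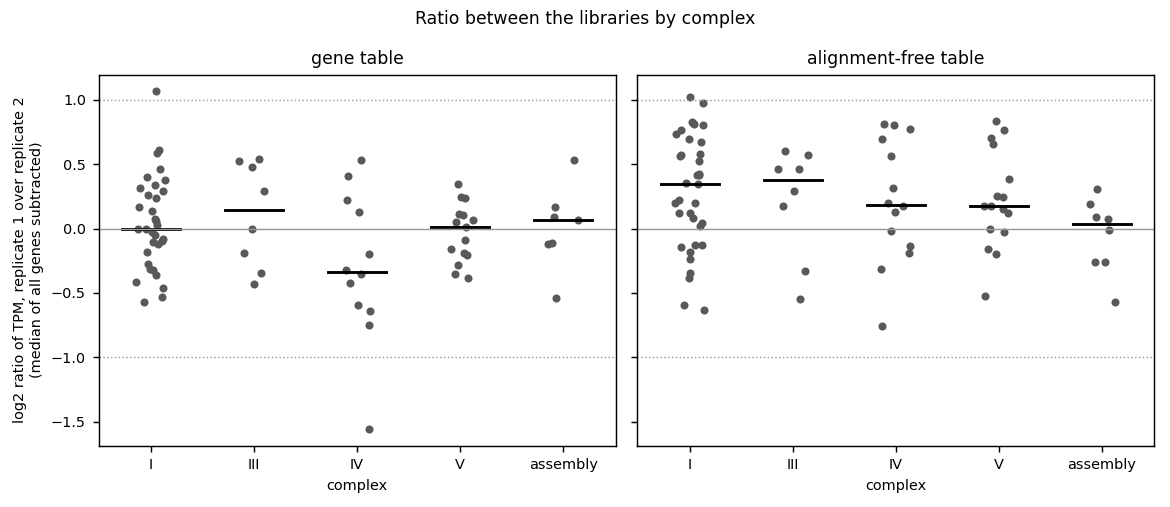
Log2 ratio of TPM, replicate 1 over replicate 2, with the median of all genes subtracted, for members that reached 10 counts in each library, by complex. Bars are medians and dotted lines mark 2-fold. Complex IV lies at -0.34 in the gene table and at 0.19 in the alignment-free table.

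In the alignment-free table the median gene had a TPM higher in replicate 1 by 1.19 on the log2 scale, over 23020 genes, so its values are compared with the gene table as CPM. Among members with 50 or more counts in each library of the gene table, the quantifications differed most for the 6 given next. Ndufs8 had 12.3 and 16.7 CPM in the alignment-free table and 4.22 and 6.19 CPM in the gene table. Ndufaf7 had 11.4 and 8.59 CPM against 4.89 and 3.07, and Ndufb2 26.5 and 16.8 CPM against 9.26 and 9.38. In the other direction, Atp5g2 had 2.74 and 2.01 CPM in the alignment-free table against 4.88 and 4.02 in the gene table. Uqcrfs1 had 3.71 and 3.50 CPM against 5.03 and 4.52, and Ndufaf3 4.03 and 5.59 CPM against 5.26 and 7.08. For these members the level depends on the method used.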

How the data were processed

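Total RNA, depleted of ribosomal RNA, was sequenced from 2 samples. The authors deposited estimated counts and TPM per gene and per transcript from alignments to the transcriptome, and a second set from an alignment-free method, on mm10 with GENCODE M21 per the deposited notes. The deposited transcript table also gives each transcript's share of its gene in percent. No source used here names the quantifiers or their versions, or says whether counting was by strand. Both samples form 1 group, so no test was run, and replicate values or mean ± SD are given. Members and lists were chosen with earlier results of these data known. Detection was TPM of 1 or more in both libraries. Ratios used log2(TPM + 1) over genes with 10 or more counts in each library, minus the median of all genes. Genes named were the 4 highest and 3 lowest detected members per complex, the 4 highest and 4 lowest ratios at 100 or more counts, the 5 highest and 3 lowest retained-intron shares at 50 or more counts, and the 3 largest differences each way between quantifications at 50 or more counts. One gene that this rule names is not reported here. Others were named for their role or after their values were seen. Alternatives were another pseudocount (0.1), detection limit, count minimum, scaling (edgeR 4.0.16 TMM, DESeq2 1.42.0 size factors on rounded counts, R 4.3.3), quantification, and single libraries. The ratio step was tested on simulated counts, and the Wilson interval and the symbol rule on made-up inputs. Tools were Python 3.11.15, numpy 2.4.6, pandas 2.3.3, scipy 1.17.1, matplotlib 3.10.9 and bedtools 2.31.1. Depths of 13506939 and 17932332 counts limit the precision of members with few counts, and reads carry no molecular identifiers.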

Additional observations from a re-analysis of the deposited data

Results flagged for a closer look

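Among genes that carry a respiratory chain symbol but no protein-coding transcript, 2 had signal in both libraries above the limit of 3 counts that a count of 0 allows. Ndufb1-ps, annotated on chromosome 12 as a noncoding RNA from a bidirectional promoter, had 46 estimated counts in replicate 1 and 126.5 in replicate 2, or 5.43 and 8.67 TPM. Ndufb4c, a processed pseudogene on chromosome 15, had 15.91 and 23.25 counts, near those of Ndufb4 with 13.1 and 18.8. The processed pseudogene Atp5l-ps2 passed that limit in 1 library, with 1 count in replicate 1 and 5 in replicate 2. No control sample was analysed here, and the source of these reads was not tested.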

How the results depend on the processing

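With 1 group of 2 libraries, no call rests on a test. No paired analysis was possible because the 2 libraries form a single group. Over single libraries, detected members were 80 in each, the median level 2.72 to 3.09 on the log2(TPM + 1) scale, the share of counts 0.0627 to 0.0675%, the retained-intron share 21.1% in each, the protein-coding share 72.7 to 73.7% and the mitochondrial minus nuclear difference 8.46 to 8.79. Of 78 detected members, 49 had a TPM of 5 or more in both, and the alignment-free table gave 56 detected. In that table the median gene read lower in replicate 2, by 1.19 on the log2 scale. These counts, and those beyond 2-fold below, have no share of all protein-coding genes beside them. They describe the settings and show nothing particular to members. The median level of members, 2.91, was 3.37 with TPM rescaled without mitochondrial and short genes, 2.38 in CPM and 1.87 in the alignment-free table. Their share of counts was 0.0702% in the alignment-free table, and their share of TPM 0.0763%. The retained-intron share of 21.1% was 27.1% among members with such a transcript, 3.9% as a median over members, 29.5% in the alignment-free table, 18.8% of TPM, 19% without Atp5l and 15.8% without members whose exons overlap another gene. The protein-coding share of 73.2% was 86% as a median, 62.2% in the alignment-free table and 72.2% of TPM. The median log2 ratio of -0.005 was -0.109 under TMM, -0.161 under DESeq2 size factors, 0.33 with no filter and 0.195 in the alignment-free table. For all protein-coding genes, at 0.0143 in the main setting, the corresponding values were -0.0279, -0.0506, 0.219 and 0.0913. Members and all protein-coding genes thus shifted in the same direction under each of these settings. Members lay below all protein-coding genes in the main setting and under TMM and DESeq2 size factors. They lay above them with no filter and in the alignment-free table. Members beyond 2-fold, 2 at first, were 0 under TMM and in CPM, 1 under DESeq2 size factors, at 50 counts and in the alignment-free table, and 4 with no median subtracted. The mitochondrial minus nuclear difference of 8.62 was 8.11 in the alignment-free table. For single members, 91 of 270 recomputed levels and 248 of 380 ratios moved. A ratio moved if it changed by 0.1 or more on the log2 scale. A level moved if it lay at least 1 SD of the 2 libraries from their mean. A single library always lies within that SD unless both values are equal. Its 85 unmoved and 5 moved levels, in each library, were therefore fixed in advance and say nothing about stability. Equal TPM was found in 5 members. The TPM shares of transcript types, the omission of Atp5l or of overlapping genes, and the ratios in CPM were chosen after seeing the data. The causes were not tested, and members with few counts are limited by depth.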
